A study of Mus musculus with 24 samples.

Results

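The genes described here are 33 genes of DNA repair and of the DNA damage checkpoint, chosen by name from the 54532 genes of 1 count table of mouse pancreatic tumours. All 33 were found by symbol, each once. RNA was sequenced from 24 tumour samples in 4 groups of 6: PBS, the control group given buffered saline, and the treated groups GEM, IGEL and LIGEL. All samples carry day 24. Tumours were frozen, RNA was taken with Trizol and libraries were read on an Illumina machine. GEM, IGEL and LIGEL are not spelled out in the labels, and for mouse strain, age, tumour model and dose no source was at hand. The series title speaks of losartan, a blocker of the angiotensin receptor, and of a carrier for chemo-immunotherapy. Sample titles say muscle where the tissue label says pancreatic tumour. Genes of skeletal muscle took 0.0341% of counts in IGEL replicate 4 and at most 0.00289% in any other library. All 10 epithelial markers, Epcam and Krt19 among them, had reads in every library. Whether each group's 6 samples are 6 animals is not stated, so the p-values reflect the spread among these samples and that spread may be technical.

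Cells meet broken or blocked DNA with several linked systems. Homologous recombination mends a double-strand break by copying the sister chromatid and runs mainly in S and G2 phase, with BRCA1, BRCA2 and PALB2 among its main proteins. The Fanconi anaemia pathway unhooks crosslinks between the strands, and checkpoint kinases hold the cycle while repair goes on. Many of these genes are transcribed mostly in dividing cells, and several of the proteins matter in pancreatic cancer, where inherited loss of BRCA1, BRCA2, PALB2 or ATM raises risk and tumours lacking recombination respond to PARP inhibitors.

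The 33 members fall into 6 roles. Recombination holds 11 members (Brca1, Brca2, Bard1, Palb2, Rad51b, Rad51c, Xrcc2, Xrcc3, Rad51ap1, Rad54l and Rad54b). Break sensing holds 5 (Rad50, Mre11a, Nbn, Mdc1 and Atm), and the Fanconi group holds 7 (Fanca, Fancb, Fancc, Fancg, Fancm, Fancd2 and Fanci). End processing and end joining at breaks holds 4 (Blm, Exo1, Polq and Parp1), the checkpoint group holds 4 (Atr, Chek1, Chek2 and Clspn), and mismatch repair with DNA methylation upkeep holds 2 (Msh6 and Uhrf1).

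Promoter sequences are shown for the members that the comparisons turn on, so that the motif letters stand beside the values. They are Mdc1, Chek2 and Brca1, the members that passed the test in LIGEL against PBS, and Rad51c and Fancm, which had the 2 largest p-values there. Each window is RefSeq sequence of build GRCm38.p6, 250 bases before to 50 bases after the transcription start, written 5′ to 3′ on the strand of the gene. Capitals mark 4 kinds of word, read on both strands. They are the E2F words TTTCCCGC, TTTCGCGC, TTTGCCGC and TTTGGCGC, the CHR words TTTGAA and TTCGAA, the CCAAT box CCAAT and the GC box GGGCGG. E2F factors and CHR binding complexes time transcription over the cell cycle, and the CCAAT and GC boxes are common promoter elements bound by NF-Y and Sp1.
Mdc1, plus strand, chr17:35841248-35841547: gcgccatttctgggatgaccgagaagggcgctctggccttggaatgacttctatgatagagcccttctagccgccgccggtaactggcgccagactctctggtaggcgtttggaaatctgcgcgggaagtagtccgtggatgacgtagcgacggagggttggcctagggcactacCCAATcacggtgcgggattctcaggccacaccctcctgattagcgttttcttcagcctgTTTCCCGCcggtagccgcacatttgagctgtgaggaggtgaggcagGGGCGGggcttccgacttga
Chek2, plus strand, chr5:110839733-110840032: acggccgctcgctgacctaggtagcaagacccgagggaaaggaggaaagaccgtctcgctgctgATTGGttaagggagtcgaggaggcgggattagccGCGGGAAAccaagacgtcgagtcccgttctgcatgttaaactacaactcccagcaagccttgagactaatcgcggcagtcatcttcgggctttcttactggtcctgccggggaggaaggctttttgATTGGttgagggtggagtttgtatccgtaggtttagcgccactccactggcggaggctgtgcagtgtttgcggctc
Brca1, minus strand, chr11:101551906-101552205: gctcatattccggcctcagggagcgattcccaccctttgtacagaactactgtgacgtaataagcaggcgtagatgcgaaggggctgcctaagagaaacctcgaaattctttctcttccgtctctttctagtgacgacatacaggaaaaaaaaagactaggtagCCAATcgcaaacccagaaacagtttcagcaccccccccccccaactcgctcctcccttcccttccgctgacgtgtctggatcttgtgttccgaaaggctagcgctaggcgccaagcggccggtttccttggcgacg
Rad51c, minus strand, chr11:87404905-87405204: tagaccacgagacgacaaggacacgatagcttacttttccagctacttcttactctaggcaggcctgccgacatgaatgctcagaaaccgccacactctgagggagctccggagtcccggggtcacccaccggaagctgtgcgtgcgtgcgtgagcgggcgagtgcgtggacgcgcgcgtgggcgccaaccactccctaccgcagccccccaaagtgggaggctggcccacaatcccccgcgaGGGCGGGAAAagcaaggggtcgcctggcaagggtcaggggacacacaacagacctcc
Fancm, plus strand, chr12:65075353-65075652: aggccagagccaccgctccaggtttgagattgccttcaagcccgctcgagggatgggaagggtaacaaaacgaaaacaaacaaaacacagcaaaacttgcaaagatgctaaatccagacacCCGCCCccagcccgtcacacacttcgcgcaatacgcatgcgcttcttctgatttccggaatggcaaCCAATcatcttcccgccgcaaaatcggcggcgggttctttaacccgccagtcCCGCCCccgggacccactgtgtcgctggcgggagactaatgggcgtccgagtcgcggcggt

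In the Mdc1 window an E2F word began 16 bases before the start, a CCAAT box 75 bases before it and a GC box 30 bases after it. The Chek2 window held an E2F word and 2 CCAAT boxes, all read on the opposite strand. Brca1 had 1 CCAAT box and none of the other words. In Rad51c the E2F word, on the opposite strand, overlapped the GC box, so that the capitals there cover both. Fancm had 2 GC boxes and 1 CCAAT box. Of the 33 members, 27 matched a promoter of the RefSeq table by symbol, the others being Xrcc2, Rad54b, Rad50, Exo1, Nbn and Fancd2. An E2F word stood in 8 of the 27 windows (29.6%), those of Bard1, Brca2, Chek2, Clspn, Fancg, Mdc1, Msh6 and Rad51c, and in 2.26% of all 32851 promoters of the table. A CHR word stood in 3 member windows (11.1%) against 19.2% of all promoters, a CCAAT box in 18 (66.7%) against 37.4%, and a GC box in 17 (63.0%) against 35.7%. A match is a run of letters and not a measured binding site.

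All 33 members had reads in every library, the lowest count being 5 reads of Rad51b in PBS replicate 5, and all passed the filter on low counts. Levels between genes are compared as RPKM, reads per kilobase of gene and per library depth, as the median over 24 libraries. Uhrf1, which keeps DNA methylation through replication, had the highest level at 42.3 RPKM. It was followed by Msh6, a mismatch recognition subunit, at 24 RPKM and by Parp1, the sensor of strand breaks, at 21.8 RPKM. Rad50 had 14.7 RPKM, Mdc1 12.8 RPKM and Brca1 6.57 RPKM. The lowest levels belonged to the recombination genes Rad51c at 0.873 RPKM and Rad51b at 0.602 RPKM. Without PBS replicate 5, the highest library exceeded the lowest by 1.47-fold for Atr, the kinase of stalled forks, and by 4.38-fold for Fanci, with a median over the members of 2.25-fold.

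PBS replicate 5 stood apart from the other 23 libraries and is described before the comparisons that rest on it. It was the lowest of all 24 libraries for 28 members and the highest for 2, Xrcc3 and Fancc. For 30 members it was below each of the other PBS libraries. These ranks were not counted over all genes, so they do not show whether the low levels were particular to the members. Markers of acinar cells, the enzyme-secreting cells of the pancreas, made up 44.5% of the counts of PBS replicate 5, against 0.379 to 6.74% in the other PBS libraries. The 24 proliferation genes, Mki67 among them, took 0.0288% of its counts, against 0.302 to 0.585% in the other PBS libraries. It also had the smallest total, 27.1 M counts (M, 1e+06) against up to 40.5 M elsewhere, and the smallest TMM scaling factor, 0.548. What part these differences have in its low repair gene levels was not tested. The comparisons with PBS are therefore given with and without this library, and in them "5 PBS libraries" means without it.

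**Figure D1:**
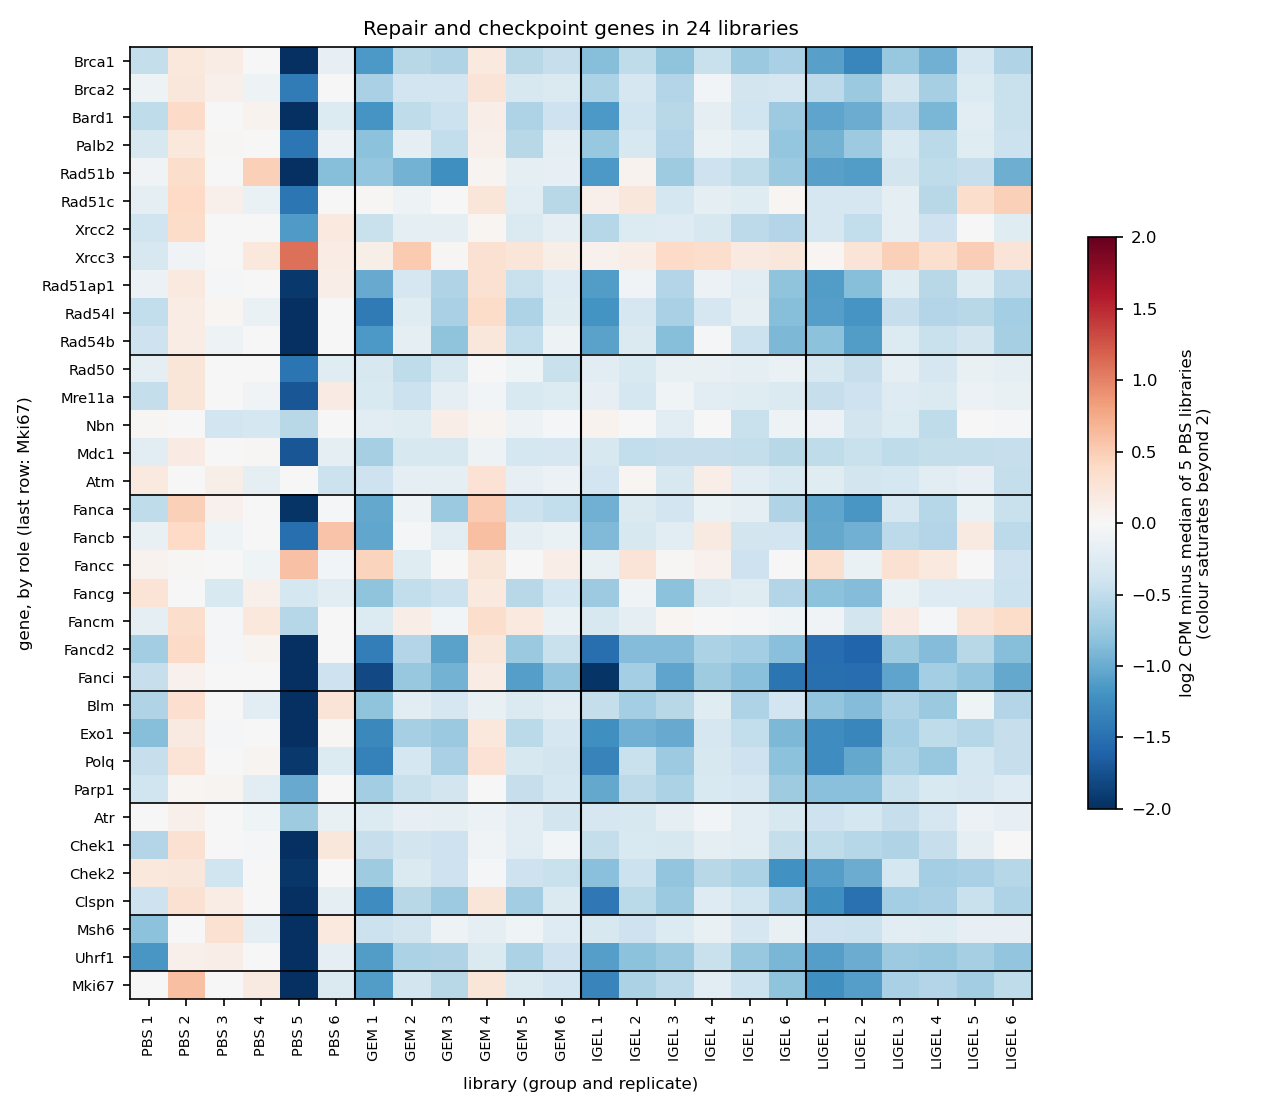
Level of each of the 33 members and of Mki67 (rows, grouped by role) in each of the 24 libraries (columns), as log2 CPM minus the median of the 5 PBS libraries without replicate 5. PBS replicate 5 is dark blue for most members and red for Xrcc3 and Fancc, and the treated libraries are mostly pale to mid blue.

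With all 24 libraries, no member passed the test in any treated group against PBS (edgeR quasi-likelihood test, Benjamini-Hochberg adjusted p under 0.05 over 19253 genes). No gene of the table did either, so the background rate was 0% in each comparison. DESeq2 called 0 members in each of the 3 comparisons, and limma voom with sample quality weights called 0 in GEM, 8 in IGEL and 20 in LIGEL. The calls of limma voom were all lower, where it called 0.301%, 1.58% and 2.8% of all genes lower in GEM, IGEL and LIGEL, and DESeq2 called 0%, 0.26% and 5.31%. The sign was mostly negative. In GEM 28 of 33 members had a negative log2 fold change against 53.5% of all genes, in IGEL 31 of 33 against 52.9%, and in LIGEL 30 of 33 against 53.5%. The median log2 fold change of the members was -0.12 in GEM, -0.27 in IGEL and -0.37 in LIGEL, with medians of all genes between -0.03 and -0.02. At an unadjusted p under 0.05, 0 members were lower in GEM (2.89% of all genes), 3 in IGEL (9.25%) and 5 in LIGEL (14.2%).

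Without PBS replicate 5, 3 of the 33 members passed the test in at least 1 treated group, each with a negative log2 fold change against the 5 PBS libraries. In LIGEL, the break adaptor Mdc1 fell by 26.1%, the checkpoint kinase Chek2 by 39.7% and the recombination gene Brca1 by 41.4%. In IGEL Mdc1 passed the test, and in GEM no member did. None of these calls was left without 6 libraries that come from columns A1 to A3. In that fit, 0% of the 20036 genes tested were called lower in IGEL and in LIGEL. There the log2 fold change in LIGEL was -0.43 for Mdc1, -0.57 for Chek2 and -0.60 for Brca1 (edgeR, adjusted p = 0.0886, 0.323 and 0.326). With a term for those 6 libraries in their place, the calls of Mdc1 in LIGEL and IGEL and of Chek2 in LIGEL held. With a term for proliferation genes none held, but the score in that term itself differed between the groups. In bulk tissue, fewer cells that express a gene and less of its RNA per cell cannot be told apart.

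In LIGEL against the 5 PBS libraries, 3 of 33 members were called lower, against 0.748% of the 19525 genes tested. None was called higher, against 0.138% of all genes. DESeq2 called 10 members (2.29% of all genes) and limma voom 24 (3.13%), all lower. The log2 fold change was negative for 31 of 33 members (51.9% of all genes), with a median of -0.53 against -0.01 for all genes. An unadjusted p under 0.05 was reached by 27 members in the lower direction (9.97% of all genes) and by 1 in the higher direction (5.39%), which was Xrcc3. For 5 members, Mdc1, Brca2, Fanci, Clspn and Rad51ap1, every LIGEL library was below each of the 5 PBS libraries, as for 1.33% of all genes.

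In IGEL, 1 member of 33 was called lower (0.0922% of all genes) and 0 higher (0%), where DESeq2 called 6 lower (1.34% of all genes) and limma voom 10 (2.35%). The log2 fold change was negative for 31 members (50.7% of all genes), with a median of -0.48 against -0.004 for all genes. Of the 33, 23 had an unadjusted p under 0.05 in the lower direction (7% of all genes) and Xrcc3 in the higher (5.22%). Every IGEL library was below the 5 PBS libraries for 3 members, Mdc1, Chek2 and Fanci (0.825% of all genes).

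In GEM, edgeR and DESeq2 called 0 members and limma voom called 5, all lower, against 0% of all genes called lower in edgeR and DESeq2 and 1.59% in limma voom. The log2 fold change was negative for 30 members (53.2% of all genes) and the median was -0.31 against -0.02 for all genes. An unadjusted p under 0.05 in the lower direction was reached by 17 members (3.55% of all genes) and in the higher direction by 0 (1.65%). Without the A1 to A3 libraries, among which are GEM replicates 1, 2 and 3, the GEM median was -0.15 and 1 member reached this p in the lower direction (0.933% of all genes). For no member was every GEM library below the 5 PBS libraries (0.149% of all genes). The 3 comparisons share their PBS libraries, so their values stand side by side and are not independent of each other.

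**Figure D2:**
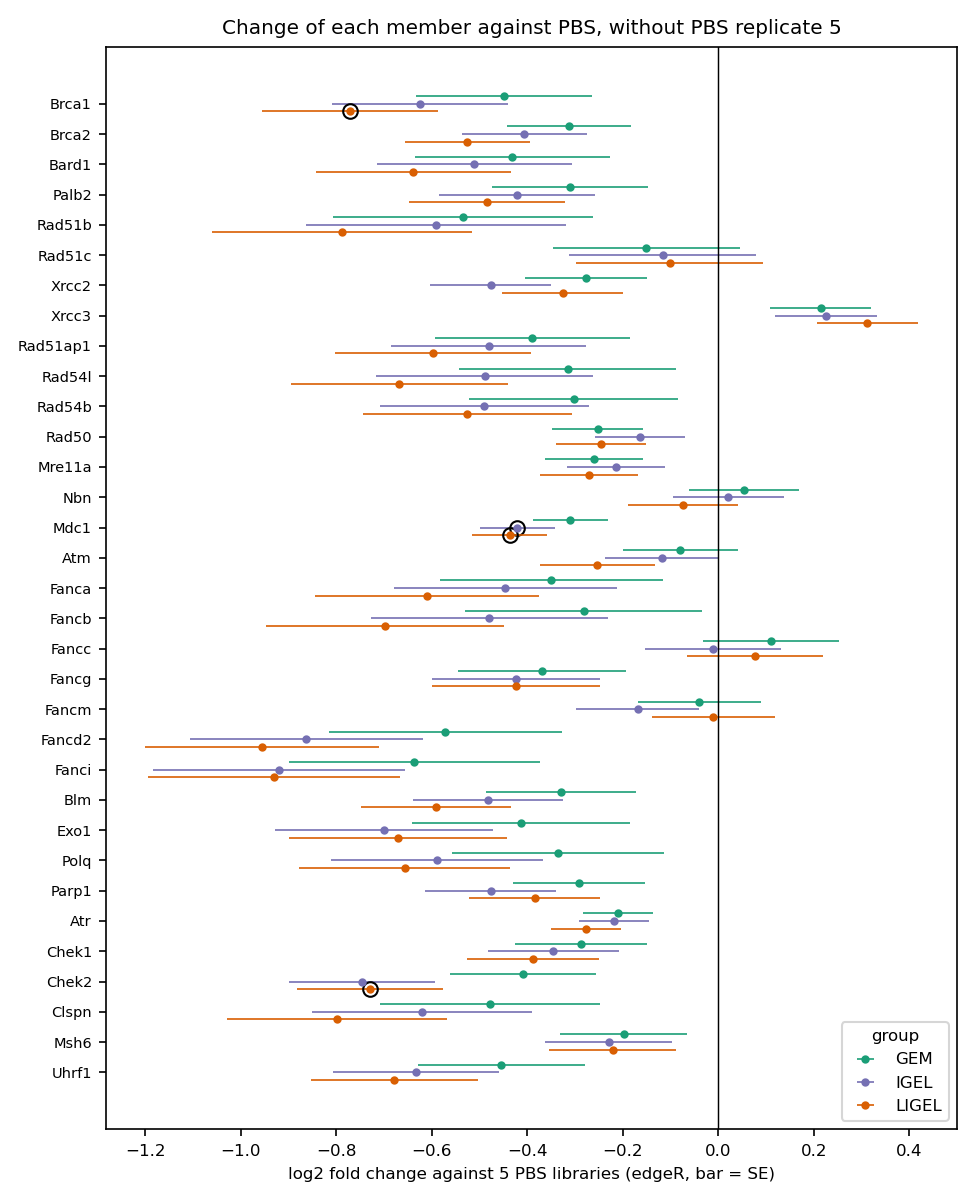
Log2 fold change of each member against the 5 PBS libraries in GEM, IGEL and LIGEL, with bars of 1 SE from edgeR; circled points passed an adjusted p under 0.05. Nearly all points lie left of 0, Xrcc3 lies right of it in all 3 groups, and the circled points are Mdc1 in IGEL and LIGEL and Brca1 and Chek2 in LIGEL.

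Among the break sensors, Mdc1 had the smallest p-value of all 33 members. It encodes an adaptor that binds phosphorylated histone H2AX at breaks and brings in ubiquitin ligases; the gene lies at chr17:35841515-35859670 on mm10, plus strand. Its level in the 5 PBS libraries was 110.1, 145, 129, 131 and 113 CPM (counts per 1e+06 counts of the scaled library), and 39.4 CPM in PBS replicate 5. The lowest, median and highest GEM libraries had 81.8, 103 and 120.4 CPM. The same values were 87.7, 93.2 and 104 CPM in IGEL and 91, 93 and 95.4 CPM in LIGEL. All 6 LIGEL and all 6 IGEL libraries were thus below the lowest of the 5 PBS libraries and far above PBS replicate 5, while GEM overlapped PBS. The 6 LIGEL values lay close together, at 92.9 ± 1.63 CPM (SD, n = 6), against 126 ± 14.2 CPM in PBS (SD, n = 5). The log2 fold change was -0.44 ± 0.08 in LIGEL (SE; edgeR, adjusted p = 0.0102) and -0.42 ± 0.08 in IGEL (SE; edgeR, adjusted p = 0.04995). In GEM it was -0.31 ± 0.08 (SE; edgeR, adjusted p = 0.597). With PBS replicate 5 kept, the LIGEL value was -0.26 ± 0.18 and the call was lost (edgeR, adjusted p = 0.404). Leaving out PBS replicate 2 as well also ended it (edgeR, adjusted p = 0.0615). The IGEL call was lost on leaving out any 1 of 18 of the 23 libraries, with edgeR adjusted p-values from 0.00207 to 0.177.

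The other sensors had smaller log2 fold changes. Nbn, a subunit of the MRN complex that holds broken ends, had 21, 20.9, 16, 16.2 and 20.7 CPM in the 5 PBS libraries and 14 CPM in PBS replicate 5. Its lowest, median and highest values were 17.6, 19.7 and 22.8 CPM in GEM, 15.2, 19.9 and 21.8 CPM in IGEL and 14.6, 18.2 and 20.8 CPM in LIGEL. All 4 groups overlapped, and the log2 fold change in LIGEL was -0.07 ± 0.12 (SE; edgeR, adjusted p = 0.788). The other MRN subunits had an unadjusted p under 0.05 but were not called. Rad50 averaged 89.1 ± 12.3 CPM in PBS and 75.2 ± 6.13 CPM in LIGEL (SD, n = 5 and 6), a log2 difference of -0.25. Mre11a, the nuclease, averaged 51.7 ± 9.39 and 42.9 ± 4.12 CPM, a log2 difference of -0.27. Atm, the kinase that the MRN complex activates, averaged 49.6 ± 8.28 and 41.7 ± 3.15 CPM, a log2 difference of -0.25. It was 1 of the 3 members for which PBS replicate 5, at 51.6 CPM, was neither the lowest nor the highest library, the others being Fancg and Parp1.

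Among the checkpoint genes, Chek2, the kinase downstream of ATM, was called in LIGEL. The gene lies at chr5:110839979-110874145 on mm10, plus strand. It had 17.5, 17.6, 11.5, 15.1 and 14.9 CPM in the 5 PBS libraries and 3.85 CPM in PBS replicate 5. The lowest, median and highest levels were 9.16, 11.3 and 14.7 CPM in GEM, 6.51, 9.24 and 11.2 CPM in IGEL and 7.0, 9.49 and 11.7 CPM in LIGEL. IGEL lay wholly below the 5 PBS libraries, and LIGEL overlapped only PBS replicate 3, through LIGEL replicate 3. Fitted, this gave a log2 fold change of -0.73 ± 0.15 in LIGEL (SE; edgeR, adjusted p = 0.0215), -0.75 ± 0.15 in IGEL (SE; edgeR, adjusted p = 0.0547) and -0.41 ± 0.15 in GEM (SE; edgeR, adjusted p = 0.841). With PBS replicate 5 kept, LIGEL gave -0.54 ± 0.24 (SE; edgeR, adjusted p = 0.208). The LIGEL call was also lost without PBS replicate 2, LIGEL replicate 1 or LIGEL replicate 2, and the edgeR adjusted p ranged from 0.0158 to 0.0996 over the 23 libraries left out in turn.

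Chek1, the kinase downstream of ATR at stalled forks, had 13.3, 24.6, 19.9, 19.4 and 23.3 CPM in the 5 PBS libraries and 4.26 CPM in PBS replicate 5. Its lowest, median and highest levels were 14.4, 16.2 and 19.1 CPM in GEM, 14.2, 16 and 17.3 CPM in IGEL and 13.1, 14.2 and 19.8 CPM in LIGEL. The PBS libraries spread widely, with replicate 1 at the low end of the treated groups, and the log2 fold change in LIGEL was -0.39 ± 0.14 (SE; edgeR, adjusted p = 0.188). Clspn, the adaptor through which ATR activates CHEK1, averaged 60 ± 11.7 CPM in PBS and 34.6 ± 8.93 CPM in LIGEL (SD, n = 5 and 6). Every LIGEL library, at 21.4 to 44.5 CPM, was below every one of the 5 PBS libraries, at 45.1 to 74.8 CPM, but the adjusted p was 0.107 (edgeR). Atr itself differed by a log2 fold change of -0.28 ± 0.07 in LIGEL, from 45.7 ± 3.06 to 37.7 ± 3.65 CPM (edgeR, adjusted p = 0.0729).

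Recombination held the third called gene. Brca1, at chr11:101488764-101551955 on the minus strand of mm10, encodes the scaffold that favours end resection and recruits PALB2 and BRCA2. Its level was 60.5, 97.1, 93.2, 84 and 74.8 CPM in the 5 PBS libraries and 17.5 CPM in PBS replicate 5. The lowest, median and highest levels were 37.7, 57.1 and 96.2 CPM in GEM, 46.5, 52 and 61.9 CPM in IGEL and 34.1, 46.5 and 66.8 CPM in LIGEL. PBS replicate 1 was lower than LIGEL replicate 5, so the groups overlapped, and GEM replicate 4 stood with the high PBS libraries. The log2 fold change was -0.77 ± 0.18 in LIGEL (SE; edgeR, adjusted p = 0.0488), -0.62 ± 0.18 in IGEL (SE; edgeR, adjusted p = 0.155) and -0.45 ± 0.18 in GEM (SE; edgeR, adjusted p = 0.882). With PBS replicate 5 kept, the LIGEL value was -0.57 ± 0.27 (SE; edgeR, adjusted p = 0.238). Without PBS replicate 5 the call was lost on leaving out any 1 of 18 of the 23 libraries, with edgeR adjusted p-values from 0.0144 to 0.153.

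The partners of BRCA1 differed in the same direction without being called. Brca2, a mediator of recombination, had 30.8, 38.6, 35.6, 30.6 and 33.1 CPM in the 5 PBS libraries and 19.6 to 27.2 CPM in the 6 LIGEL libraries. Those ranges did not overlap, and the log2 fold change was -0.53 ± 0.13 (SE; edgeR, adjusted p = 0.0581). Bard1, which pairs with BRCA1 as a ubiquitin ligase, averaged 26.2 ± 6.17 CPM in PBS and 16.8 ± 4.09 CPM in LIGEL (SD, n = 5 and 6). Palb2, the bridge between BRCA1 and BRCA2, averaged 13.9 ± 1.88 and 9.95 ± 1.76 CPM. Log2 fold changes were -0.64 for Bard1 and -0.48 for Palb2.

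Rad51b, Rad51c, Xrcc2 and Xrcc3, which form complexes that aid recombination, differed among themselves. Rad51c had 3.68, 5.52, 4.46, 3.8 and 4.16 CPM in the 5 PBS libraries and 1.49 CPM in PBS replicate 5. In the treated groups the lowest, median and highest levels were 2.83, 4.02 and 4.93 CPM in GEM, 3.25, 3.93 and 4.86 CPM in IGEL and 2.83, 3.48 and 5.79 CPM in LIGEL. LIGEL replicate 6 was above the 5 PBS libraries, LIGEL replicate 5 was within their range, the remaining 4 were below them, and the log2 fold change was -0.10 ± 0.20 (SE; edgeR, adjusted p = 0.836). Rad51b averaged 3.37 ± 1.08 CPM in PBS and 1.95 ± 0.464 CPM in LIGEL, and Xrcc2 13.2 ± 2.52 and 10.6 ± 1.35 CPM (SD, n = 5 and 6). Log2 fold changes were -0.79 ± 0.27 for Rad51b and -0.33 ± 0.13 for Xrcc2 (SE), neither called. Xrcc3, which works with RAD51C and whose gene overlaps Klc1 on the opposite strand, was higher in each treated group, at 22.3 ± 3.14 CPM in PBS, 26.1 ± 3.32 CPM in GEM, 26.1 ± 2.23 CPM in IGEL and 27.7 ± 3.18 CPM in LIGEL. Its log2 fold change in LIGEL was 0.31 ± 0.11 (SE; edgeR, adjusted p = 0.171), and with PBS replicate 5 kept, which had 47.9 CPM, it was 0.06.

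Rad51ap1, Rad54l and Rad54b, which act at strand exchange, were lower in LIGEL by similar amounts. Rad51ap1, which stimulates strand pairing, had 17.9, 22.4, 18.9, 19.5 and 21.4 CPM in the 5 PBS libraries and 9.0 to 16.5 CPM in LIGEL, without overlap. The translocase gene Rad54l averaged 24.2 ± 3.82 and 15.3 ± 3.01 CPM, and its relative Rad54b 16 ± 2.2 and 11.1 ± 2.33 CPM (SD, n = 5 and 6). The log2 fold changes were -0.60, -0.67 and -0.53, and none was called. Over the 11 recombination members, 10 had a negative log2 fold change in LIGEL (51.9% of all genes), 9 with an unadjusted p under 0.05 (9.97%), and the median was -0.53.

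**Figure D3:**
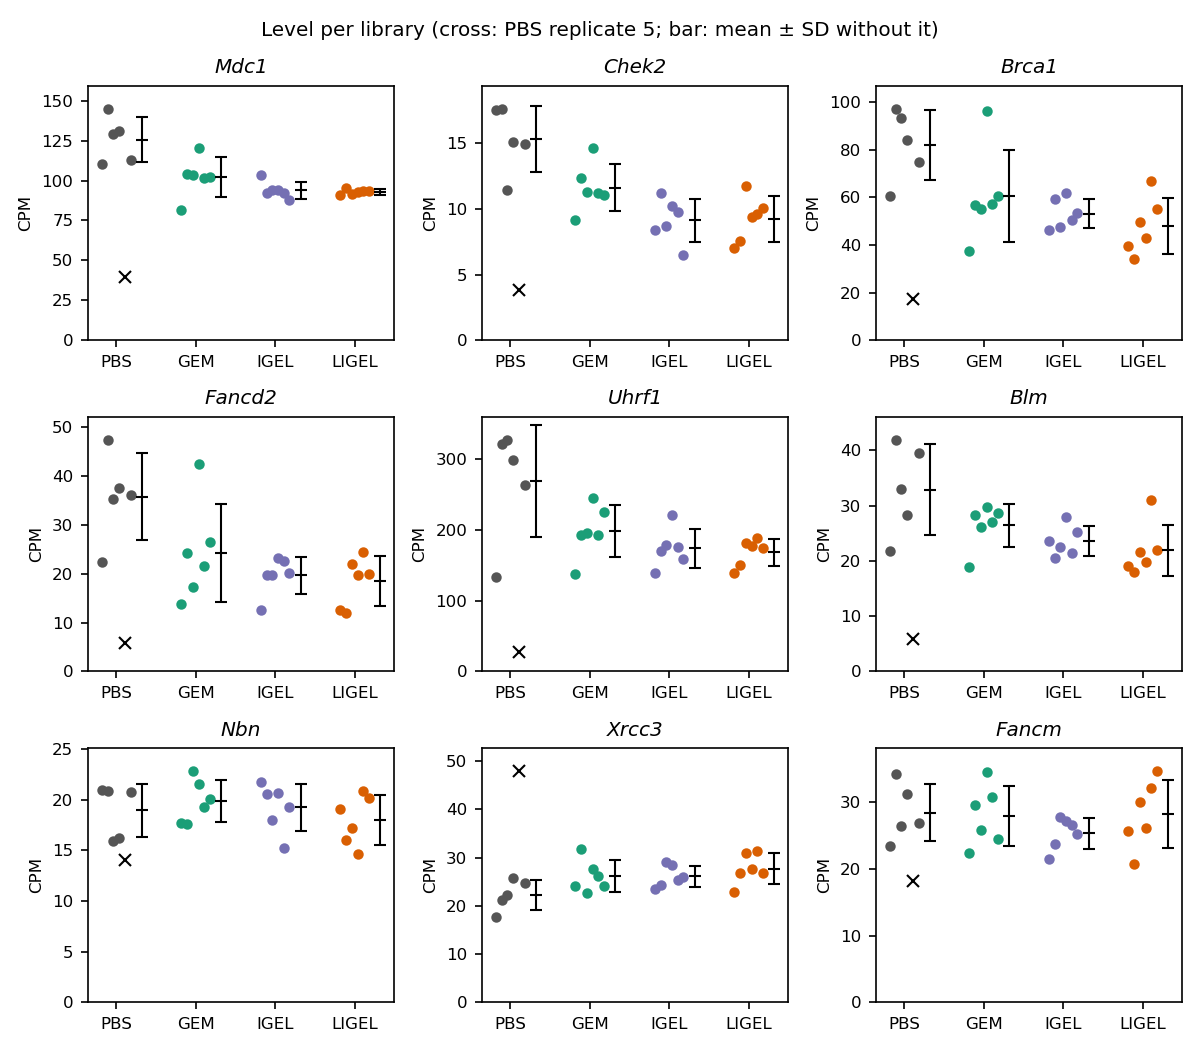
CPM of 9 members in every library, by group; a cross marks PBS replicate 5 and the bar gives the mean ± SD without it. Every LIGEL library lies below the 5 PBS libraries for Mdc1, the means of Chek2, Brca1, Fancd2, Uhrf1 and Blm are lower in LIGEL while single libraries overlap, PBS replicate 1 lies below every LIGEL library for Uhrf1, Nbn and Fancm overlap in all groups, and Xrcc3 sits highest in PBS replicate 5.

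In the Fanconi group, 6 of 7 members had a negative log2 fold change in LIGEL (51.9% of all genes), 5 of them with an unadjusted p under 0.05 (9.97%) and none called. The median was -0.61, with a range from -0.96 to 0.08. Fancd2 and Fanci, whose proteins form the clamp that is ubiquitinated at a crosslink, had the most negative values of all 33 members. Fancd2 had 22.4, 47.4, 35.3, 37.6 and 36.1 CPM in the 5 PBS libraries and 5.88 CPM in PBS replicate 5. The lowest, median and highest levels were 13.8, 22.9 and 42.5 CPM in GEM, 12.6, 20 and 23.2 CPM in IGEL and 12, 19.9 and 24.5 CPM in LIGEL. PBS replicate 1 lay among the treated libraries, and GEM replicate 4 among the high PBS libraries. The log2 fold change in LIGEL was -0.96 ± 0.24 (SE; edgeR, adjusted p = 0.0673). For Fanci the 5 PBS libraries had 15.7, 22.9, 21.5, 21.6 and 16.1 CPM, PBS replicate 5 had 2.23 CPM, and the 6 LIGEL libraries 7.42 to 13.5 CPM, without overlap with the 5. Its log2 fold change was -0.93 ± 0.26 (SE; edgeR, adjusted p = 0.0987).

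Members of the core complex that ubiquitinates this clamp did not all have the same sign. Fanca averaged 37.9 ± 9.0 CPM in PBS and 24.8 ± 6.67 CPM in LIGEL, Fancb 7.26 ± 1.66 and 4.48 ± 1.5 CPM, and Fancg 15.2 ± 2.51 and 11.3 ± 2.34 CPM (SD, n = 5 and 6). Their log2 fold changes were -0.61, -0.70 and -0.42. Fancc, which overlaps 2010111I01Rik on the opposite strand, had 10.5 ± 0.471 and 11.1 ± 2.1 CPM in PBS and LIGEL and a log2 fold change of 0.08 ± 0.14 (SE). Fancm, the translocase that anchors the core complex on DNA, had 23.4, 34.2, 26.5, 31.3 and 26.9 CPM in the 5 PBS libraries and 18.2 CPM in PBS replicate 5. Lowest, median and highest values among treated libraries were 22.4, 27.7 and 34.5 CPM in GEM, 21.5, 25.9 and 27.7 CPM in IGEL and 20.7, 28.1 and 34.6 CPM in LIGEL. The groups overlapped almost fully, and the LIGEL log2 fold change was -0.01 ± 0.13 (SE; edgeR, adjusted p = 0.976).

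All 4 members of end processing had a negative log2 fold change (51.9% of all genes) and an unadjusted p under 0.05 in LIGEL (9.97%), and none was called. Blm, the Bloom helicase that dissolves joined molecules and helps resect ends, had 21.8, 41.8, 33, 28.3 and 39.5 CPM in the 5 PBS libraries and 5.94 CPM in PBS replicate 5. Its lowest, median and highest levels were 18.9, 27.6 and 29.7 CPM in GEM, 20.6, 23.1 and 28 CPM in IGEL and 18.1, 20.6 and 30.9 CPM in LIGEL. LIGEL replicate 5 stood above the other 5 LIGEL libraries and PBS replicate 1 below its group, and the log2 fold change was -0.59 ± 0.16 (SE; edgeR, adjusted p = 0.0747). Parp1 had 114, 154, 156, 130.0 and 151 CPM in the 5 PBS libraries and 75 CPM in PBS replicate 5. In the treated groups the lowest, median and highest levels were 92.9, 114 and 151 CPM in GEM, 74.1, 101 and 122 CPM in IGEL and 84.5, 116 and 127 CPM in LIGEL. IGEL replicate 1, not PBS replicate 5, was its lowest library, and the log2 fold change in LIGEL was -0.38 ± 0.14 (SE; edgeR, adjusted p = 0.191). Exo1, the resection nuclease, averaged 25.1 ± 5.91 and 15.8 ± 3.83 CPM, and Polq, the polymerase of microhomology end joining, 27.7 ± 5.39 and 17.6 ± 4.01 CPM (SD, n = 5 and 6).

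Uhrf1, which recruits the maintenance methylase DNMT1 to replicated DNA, had 134, 321, 327, 299.6 and 264 CPM in the 5 PBS libraries and 27.2 CPM in PBS replicate 5. Lowest, median and highest values among treated libraries were 137, 195 and 245 CPM in GEM, 139, 173 and 221 CPM in IGEL and 139.6, 176 and 189 CPM in LIGEL. PBS replicate 1 was below every treated library, while the other 4 were above every one of them. In LIGEL the log2 fold change was -0.68 ± 0.17 (SE; edgeR, adjusted p = 0.0683). Msh6 had 67.6, 119, 147, 106 and 137 CPM in the 5 PBS libraries and 23.4 CPM in PBS replicate 5. Its lowest, median and highest levels were 88.7, 102 and 113 CPM in GEM, 89.1, 96.6 and 108 CPM in IGEL and 88.7, 102 and 107 CPM in LIGEL. PBS replicate 1 was again below all treated libraries, the groups overlapped, and the log2 fold change was -0.22 ± 0.13 (SE; edgeR, adjusted p = 0.433).

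No member was called between treated groups. Compared among themselves, GEM, IGEL and LIGEL gave 0 called members by edgeR, DESeq2 and limma voom, with and without PBS replicate 5. The background was 0% of all genes in each comparison by each of these tools. With 24 libraries, edgeR gave 0 members an unadjusted p under 0.05. In the lower direction this p was reached by 0.831% of all genes for LIGEL relative to IGEL, 0.706% for IGEL relative to GEM and 2.33% for LIGEL relative to GEM. The values were negative for 24 of 33 members for LIGEL relative to IGEL (54.9% of all genes), 29 for IGEL relative to GEM (52.3%) and 30 for LIGEL relative to GEM (52.9%), with medians of -0.06, -0.12 and -0.22. Without PBS replicate 5, Chek2 alone had an unadjusted p under 0.05. Relative to GEM its log2 fold change was -0.34 ± 0.15 in IGEL (SE; edgeR, adjusted p = 0.999) and -0.32 ± 0.15 in LIGEL (SE; edgeR, adjusted p = 0.877). This p was reached in the lower direction by 0.896% and 3.17% of all genes there, and by 1.17% for LIGEL relative to IGEL.

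Beyond the members, 93 other repair and checkpoint genes were listed, and all were tested without PBS replicate 5. In LIGEL, 65 were lower and 28 higher (51.9% of all genes were lower), with 4 called lower (0.748% of all genes) and a median log2 fold change of -0.10. In IGEL 71 were lower (50.7% of all genes) and in GEM 73 (53.2%), with 0 called in either by edgeR. An unadjusted p under 0.05 in the lower direction was reached by 30 in LIGEL (9.97% of all genes), 24 in IGEL (7%) and 12 in GEM (3.55%). In the higher direction 2 reached it in LIGEL (5.39%), 2 in IGEL (5.22%) and 0 in GEM (1.65%). The called genes were Cdc25b, Wee1 and Cdc25c, which set the activity of the mitotic kinase CDK1, and Eme1, a subunit of the MUS81 nuclease. Cdc25b fell from 159 ± 40.5 CPM in PBS to 86.8 ± 13.5 CPM in LIGEL (SD, n = 5 and 6; edgeR, adjusted p = 0.0147). Wee1 fell from 40.5 ± 8.78 to 24.5 ± 4.37 CPM (edgeR, adjusted p = 0.0284), and Cdc25c by 1.08 on the log2 scale (edgeR, adjusted p = 0.0352). Eme1 fell from 23 ± 3.52 to 11.7 ± 2.48 CPM (edgeR, adjusted p = 0.0326). Over 23 fits with 1 library left out in each, 0 to 15 of the 93 genes were called, 0 without PBS replicate 2 and 15 without PBS replicate 1. The share of all genes called is not given for these 23 fits. Cdc25b was called in 22 of these fits, Wee1 in 18, Cdc25c in 16 and Eme1 in 15.

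The counts by pathway stand beside 51.9% of all genes that were lower in LIGEL, and differences between pathways were not tested. All 17 further checkpoint genes were lower in LIGEL, with a median of -0.31, and 12 of 17 further recombination genes, with a median of -0.21. Of 9 further Fanconi genes 7 were lower, with Usp1 at -0.48 ± 0.15 and Faap24 at -0.52 ± 0.16 (SE), and of 6 further mismatch repair genes 5 were lower, with Pms2 at -0.27 ± 0.10. For base excision repair 10 of 14 were lower, with Neil3 at -0.82 ± 0.28 and Neil2 at -1.06 ± 0.48, and without PBS replicate 1 the Neil2 value was -0.20. Lesion bypass had 5 of 8 lower, with Rev1 at -0.40 ± 0.10 and Polh at -0.36 ± 0.10. Classical end joining, which needs no sister chromatid, had 4 of 11 lower and a median of 0.05, with Xrcc6 at -0.40 ± 0.10 and Polm at 0.39 ± 0.12. Nucleotide excision repair had 5 of 11 lower and a median of 0.02, with Ercc8 at -0.41 ± 0.19 and Ercc5 at -0.32 ± 0.16, and without PBS replicate 1 the Ercc5 value was -0.060. None of the genes named in this paragraph was called.

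Proliferation genes were lower beside the members. Of 24 proliferation genes, 24 were lower in LIGEL without PBS replicate 5 (51.9% of all genes). Of these, 14 were called (0.748%), and the median log2 fold change was -0.90. Leaving out PBS replicate 2 as well left 2 called, and leaving out PBS replicate 1 gave 19, where the share of all genes called is not given. In IGEL 24 were lower (50.7% of all genes) with 2 called (0.0922%). In GEM 24 were lower (53.2%) with 0 called (0%) and 18 at an unadjusted p under 0.05 (3.55%). Together they took 0.302 to 0.585% of counts in the 5 PBS libraries, 0.225 to 0.449% in GEM, 0.213 to 0.322% in IGEL and 0.21 to 0.326% in LIGEL, with none of them at 0 in any library. When the mean log2 CPM of these genes entered the edgeR model as a term, 12 of 33 members were lower in LIGEL (59.1% of all genes), 9 in IGEL (58.2%) and 11 in GEM (60.5%), and none was called lower (0% of all genes). An unadjusted p under 0.05 in the lower direction was then left for 2 (5.59% of all genes), 2 (3.05%) and 1 (1.42%) members. The member medians were 0.08, 0.06 and 0.04. Mdc1 then had a log2 fold change of -0.24 in LIGEL (edgeR, adjusted p = 0.524), Chek2 -0.42 (edgeR, adjusted p = 0.53) and Brca1 -0.07 (edgeR, adjusted p = 0.948).

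**Figure D4:**
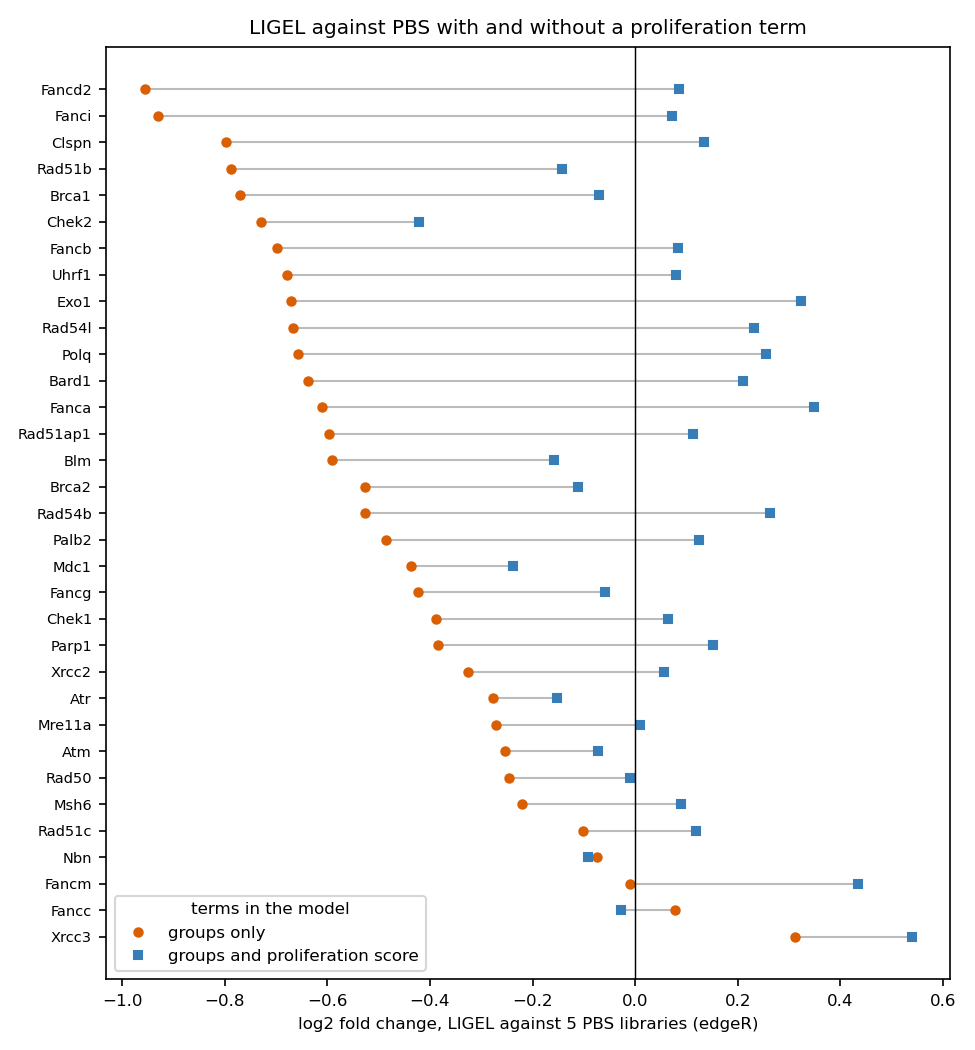
Log2 fold change of each member in LIGEL against the 5 PBS libraries in a model of the groups (circles) and in a model with a proliferation score added (squares). The circles run from -0.96 for Fancd2 to 0.31 for Xrcc3, and the squares lie around 0, with 12 of 33 below it. The score itself was on average lower in LIGEL than in the 5 PBS libraries.

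Markers of other cells are given for the same comparison. Of all genes, 51.9% were lower in LIGEL and 50.7% in IGEL. Calls in LIGEL covered 0.748% of all genes lower and 0.138% higher. An unadjusted p under 0.05 was reached there by 9.97% lower and 5.39% higher. In IGEL 0% were called higher and 5.22% reached this p in the higher direction. T cell genes were higher for 15 of 15 in LIGEL and in IGEL with 0 called by edgeR, and 2 and 4 at an unadjusted p under 0.05; they took 0.00368 to 0.015% of counts in the 5 PBS libraries and 0.00523 to 0.014% in LIGEL. Of 10 epithelial markers, 8 were lower in LIGEL with 0 called and 5 at an unadjusted p under 0.05, and a median of -1.70. They took 0.0842 to 0.202% of counts in the 5 PBS libraries and 0.0914 to 0.119% in LIGEL. All 10 fibroblast markers were lower in LIGEL with 0 called and 4 at an unadjusted p under 0.05, at 0.721 to 3.43% of counts in the 5 PBS libraries and 0.621 to 1.39% in LIGEL. Acinar markers took 0.379 to 6.74% in the 5 PBS libraries and 0.0155 to 8.61% in LIGEL, where 14 of 26 were lower with 0 called and 0 at an unadjusted p under 0.05. With the acinar score in the model, 8 members were called lower in LIGEL, against 1.27% of all genes. PBS replicate 1 had the highest mean log2 CPM of the 5 PBS libraries for these 4 lists, and leaving it out moved the LIGEL medians of the epithelial markers to -0.45 (7 of 10 lower and 0 at an unadjusted p under 0.05), of the fibroblast markers to -0.24, of the T cell genes to 1.11 (14 of 15 then at an unadjusted p under 0.05) and of the acinar markers to 0.75. The share of all genes at an unadjusted p under 0.05 is not given for the fit without PBS replicate 1. T cell, epithelial and fibroblast markers were at 0 in no library. Their part in the member values was not tested.

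Mki67, the marker of cycling cells, had 495 ± 119 CPM in the 5 PBS libraries, 352 ± 107 CPM in GEM, 295 ± 72 CPM in IGEL and 265 ± 51.3 CPM in LIGEL (SD, n = 5, 6, 6 and 6). Over the 23 libraries, the log2 CPM of 16 members correlated with that of Mki67 at a Pearson r above 0.8, and the median r of the 33 was 0.796. These 33 relations share libraries, depth and scaling. The permutations shuffled libraries without regard to group, so differences between groups enter r, rho and their p-values. Coefficients were not computed for all genes, so no background stands beside the counts and medians of r given here and below. Since the members were chosen with earlier results known, no p adjusted over them is given. Polq was closest, with r = 0.938 and Spearman rho = 0.877 (permutation p = 1e-05 for each, the smallest that 100000 resamples can give). It was followed by Fanci at r = 0.927 and Clspn at r = 0.926, with rho of 0.845 and 0.844 and the same permutation p-values. Without the 2 libraries farthest from the median of Mki67, r was 0.919 for Polq, 0.908 for Fanci and 0.899 for Clspn, and the median over the members was 0.789.

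The lowest coefficients belonged to 5 members. Xrcc3 had r = -0.179 (rho = -0.110; permutation p = 0.41 and 0.617). Fancc had r = -0.119 (rho = -0.090; permutation p = 0.588 and 0.682). Nbn had r = 0.084 (rho = 0.142; permutation p = 0.704 and 0.516). Rad51c had r = 0.227 (rho = 0.120; permutation p = 0.299 and 0.584). Msh6 had r = 0.352 (rho = 0.435; permutation p = 0.0994 and 0.0389). The called members lay higher, at r = 0.788 for Mdc1, 0.837 for Chek2 and 0.864 for Brca1, with rho of 0.757, 0.829 and 0.824 and permutation p-values of 3e-05, 1e-05 and 1e-05 for r. On deviations from the group means, where differences between groups are removed, the median r was 0.684, with 0.921 for Polq, 0.541 for Mdc1, 0.674 for Chek2 and 0.740 for Brca1. The permutation p-values of r on these deviations were 1e-05 for Polq, 0.00814 for Mdc1, 0.0004 for Chek2 and 6e-05 for Brca1.

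**Figure D5:**
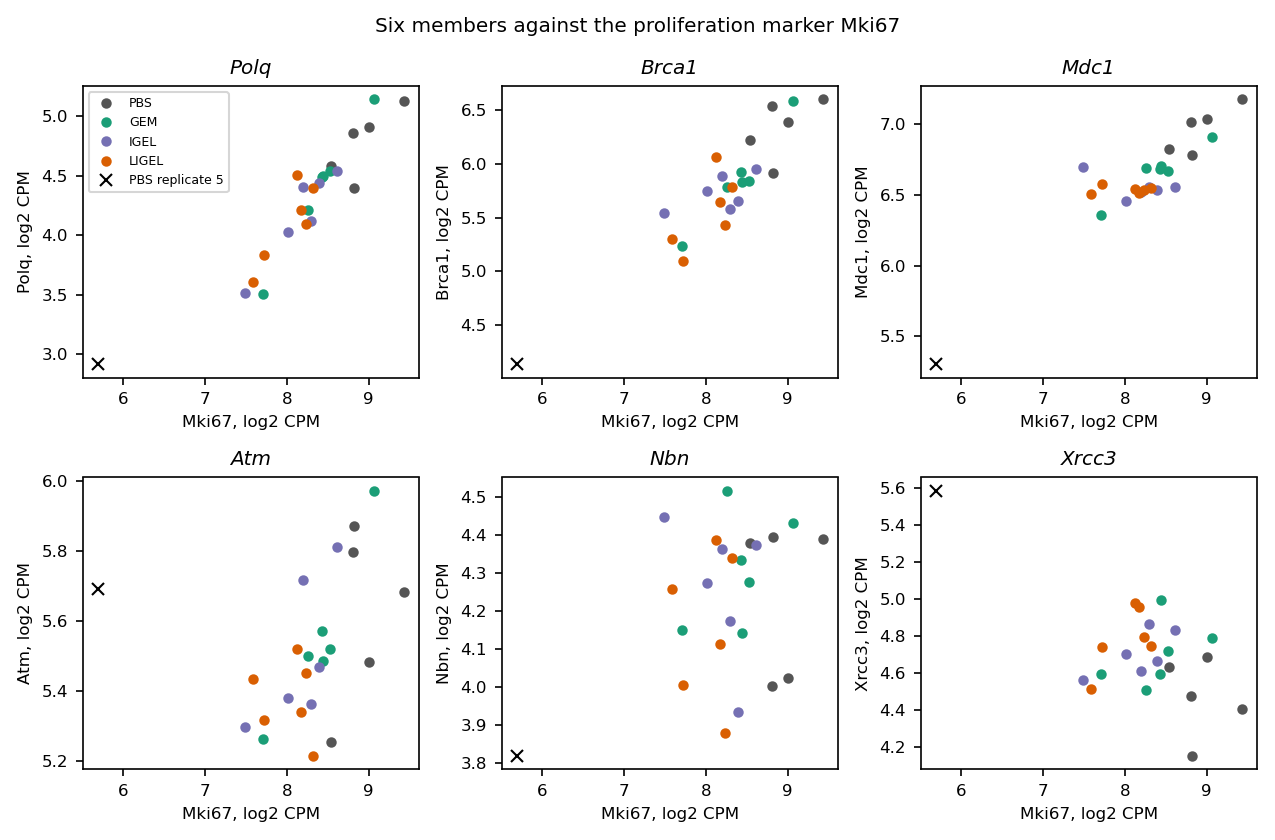
Log2 CPM of 6 members (vertical) against log2 CPM of Mki67 (horizontal) in each library, coloured by group, with a cross for PBS replicate 5. Polq, Brca1 and Mdc1 rise with Mki67 over the libraries, whereas Nbn and Xrcc3 show no such slope without PBS replicate 5.

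Count columns named A1 to A3 hold 6 libraries, which are GEM replicates 1, 2 and 3, IGEL replicate 1 and LIGEL replicates 1 and 2, and no PBS library is among them. The labels do not say what the column names stand for. Within these 6 libraries the median r with Mki67 was 0.857, and within the other 17 it was 0.718. For Polq r was 0.965 and 0.878 in these sets, for Mdc1 0.474 and 0.926, for Brca1 0.757 and 0.805, and for Xrcc3 0.576 and -0.532. Rad50 differed most between these sets, with r = -0.596 in the 6 and 0.718 in the 17. Without the 6 libraries and PBS replicate 5, edgeR called 0 members in every treated group against PBS. It also called 0% of all 20036 genes tested lower in each of these comparisons. Members lower at an unadjusted p under 0.05 then numbered 16 in LIGEL (5.14% of all genes), 20 in IGEL (5.4%) and 1 in GEM (0.933%). The member median was -0.39 in LIGEL, -0.39 in IGEL and -0.15 in GEM. With a term for the 6 libraries in place of leaving them out, edgeR called Chek2, Fancd2 and Mdc1 lower in IGEL (0.517% of all genes) and in LIGEL (0.579%), and the GEM median was -0.14.

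For 7 members the counted gene overlaps a protein-coding gene on the opposite strand that had 12571 or more counts over the 24 libraries. No source at hand says whether counting used the strand, so reads of the pair may be mixed. The pairs are Fanca and Zfp276, Fancc and 2010111I01Rik, Fanci and Polg, Mre11a and Ankrd49, Msh6 and Fbxo11, Rad54l and Lrrc41, and Xrcc3 and Klc1. Fancd2 also overlaps such a gene, Fancd2os, which had 33 counts. On the same strand, Fancc overlaps Gm16907, with 54.6% of the counts of Fancc, and Rad54b overlaps Fsbp, with 8.38% of those of Rad54b. Of the 7 opposite genes, 5 were higher in PBS replicate 5 than the median of the other PBS libraries and 2, Fbxo11 and Lrrc41, were lower. Beside Xrcc3 and Fancc, which were highest in that library, Klc1 had 156 CPM against 103 CPM and 2010111I01Rik had 100.2 CPM against 28.2 CPM. Beside Fanca, Fanci and Mre11a, which were lower there than in any other library, Zfp276 had 30.5 against 24 CPM, Polg 95.6 against 79.2 CPM and Ankrd49 21.3 against 15.5 CPM. Mdc1, Chek2 and Brca1 are not among the 7.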

How the data were processed

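Raw read counts per gene for 24 libraries were deposited as 1 table, without normalization by the authors. HISAT2, featureCounts and Subread with build mm10 are named in the submitters' processing notes, without versions. Strandedness and the annotation's release: not given in the sources used here. A gene length column, deposited beside the counts, was used for RPKM. Totals ranged from 27.1 to 40.5 M counts (M, 1e+06).

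Counts were tested in R 4.3.3 with edgeR 4.0.16: filterByExpr (minimum count 10, minimum total 15), TMM factors, 1 quasi-likelihood model with robust dispersion and a term for each group, and Benjamini-Hochberg adjustment over all genes kept (19253 with 24 libraries, 19525 without PBS replicate 5). CPM uses TMM-scaled totals, and log2 CPM a prior count of 2. Correlations used 100000 permutations. Alternatives were RLE scaling, DESeq2 1.42.0, limma 3.58.1 voom with sample quality weights, no filter, a replicate block, covariates, subsets of libraries and each library left out in turn. Leaving out each library for the other gene lists was added after seeing the data. The edgeR procedure was run on simulated counts for LIGEL against PBS, drawn gene by gene with the dispersions fitted without PBS replicate 5. Those counts held no outlying library, no shift in cell content and no correlation between genes. They therefore do not test how the procedure handles such features.

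The members, the other gene lists and the library left out were chosen with earlier results of these data known. Values in every library were printed for the members of smallest and largest p in each role in LIGEL against PBS without PBS replicate 5, and for called members; the other repair genes named are the 2 of smallest p in each list, except some that are not reported here. Cdc25c, called but outside that rule, was named after its values were seen, as were Brca2, Fanci, Clspn, Rad51ap1, Xrcc3 and Fancc where more of their values are given. Xrcc3 and Fancc stand out through PBS replicate 5. Same-numbered libraries of different groups did not deviate together (median r = -0.06 over 36 pairs of libraries), so the numbers were not taken to pair samples. No 2 libraries of the same group agreed within sampling noise. Libraries of different groups were not compared in this way.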

Additional observations from a re-analysis of the deposited data

Results flagged for a closer look

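For each member and group of 6, the gap between the extreme library and its nearest neighbour was set against the group's range (Dixon's ratio). Of 132 groups, 13 had a ratio past the critical value for 6 samples, where chance gives about 1 in 20. PBS replicate 5 accounts for 6 of the 13: it was low for Brca2 (12.6 CPM), Rad51ap1 (5.07 CPM), Mdc1 (39.4 CPM) and Fanci (2.23 CPM) and high for Xrcc3 (47.9 CPM) and Fancc (15.8 CPM).

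The other 7 fall in treated groups. GEM replicate 4 was the highest GEM library for Brca2 (39.4 CPM), Fancg (17.6 CPM) and Fanci (24.0 CPM), and its proliferation genes took 0.449% of counts, the highest share among the treated libraries. LIGEL replicate 5 was the highest of its group for Fancb (7.30 CPM) and Blm (30.9 CPM). GEM replicate 1 was the lowest of its group for Blm (18.9 CPM) and IGEL replicate 1 for Fancd2 (12.6 CPM); their proliferation shares were 0.225% and 0.213% of counts, the lowest of their groups. Whether these shares bear on the values was not tested.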

How the results depend on the processing

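With 24 libraries, the count of 0 called members held in every comparison under RLE scaling, DESeq2, no filter, the replicate block, the A1 to A3 settings, both covariates and 2 groups only; limma voom called 8 in IGEL and 20 in LIGEL. Leaving out 1 library gave 0 to 1 in IGEL and 0 to 3 in LIGEL, above 0 when that library was PBS replicate 5. Without PBS replicate 5, RLE scaling kept 1 call in IGEL and 3 in LIGEL. IGEL had 6 with DESeq2, 10 with limma voom, 0 without a filter, 8 with the replicate block, 3 with a term for the A1 to A3 libraries, 0 without them, 2 with the acinar score, 0 with the proliferation score and 0 with 2 groups only. LIGEL had 10 with DESeq2, 24 with limma voom, 2 without a filter, 9 with the replicate block, 0 without the A1 to A3 libraries, 8 with the acinar score, 0 with the proliferation score and 2 with 2 groups only; GEM had 5 with limma voom. The causes of these differences were not tested. Without PBS replicate 5 and the A1 to A3 libraries, 0% of all genes were called lower in GEM, IGEL and LIGEL. No share of all genes is given beside the counts for RLE scaling, no filter, the replicate block, 2 groups only or the acinar score in IGEL.

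Leaving out 1 further library gave 0 to 2 calls in GEM, 0 to 12 in IGEL and 0 to 10 in LIGEL. The share of all genes called in these fits is not given, so the counts are not set against a background. PBS replicate 1 gave the highest counts. Without PBS replicate 2 LIGEL had 0, without LIGEL replicate 1 or 2 it had 1 (Mdc1), and without GEM replicate 1 or 4 or LIGEL replicate 5 it had 6. In IGEL, leaving out any of PBS replicates 2, 3 and 4 or any IGEL library left 0, as did leaving out GEM replicates 2, 3, 5 or 6 or LIGEL replicates 2 to 6. Replicate numbers did not pair the samples.

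With the proliferation score the log2 fold change in LIGEL changed sign for 21 members: Bard1 0.21, Palb2 0.12, Rad51c 0.12, Xrcc2 0.056, Rad51ap1 0.11, Rad54l 0.23, Rad54b 0.26, Mre11a 0.0097, Fanca 0.35, Fancb 0.084, Fancc -0.028, Fancm 0.44, Fancd2 0.085, Fanci 0.071, Exo1 0.32, Polq 0.26, Parp1 0.15, Chek1 0.064, Clspn 0.13, Msh6 0.090 and Uhrf1 0.081. Brca1 changed sign in IGEL (0.046) and GEM (0.0072). The score itself differed between the groups, so these values do not separate proliferation from treatment. With PBS replicate 5 kept, Rad51c (0.061), Fancm (0.078) and Fancc (-0.037) changed sign in LIGEL, and without the A1 to A3 libraries Rad51c (0.041) and Fancm (0.12). Fancm also did so without a filter (0.0053), with the A1 to A3 term (0.075), with the acinar score (0.011) and without PBS replicate 2 or 4 or LIGEL replicate 1, 2 or 4 (range over single libraries -0.082 to 0.064). Of 1326 values of single members under alternatives, 1160 kept direction and side of the threshold. Counts limit precision for Rad51b and Rad51c, which had 5 and 22 reads in PBS replicate 5. In the other libraries their lowest counts were 50 (GEM replicate 3) and 76 (GEM replicate 6).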
